A study of Mus musculus with 53 samples.

Results

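Myod1, Myog, Myf5 and Myf6 are the 4 genes of the myogenic bHLH family. They were taken as the rows with these symbols among the 55573 genes of the bulk RNA tables and in the gene tables of the single-cell libraries, and all 4 were present in both. Transcripts were measured in mouse cerebellum in which Atoh1Cre, a recombinase under control of Atoh1 sequence and active in the granule cell lineage, was combined with floxed Insm1 or with floxed Tead1 and Tead2. INSM1 is a zinc finger repressor of neural and endocrine progenitors, and TEAD1 and TEAD2 are the DNA-binding factors of the Hippo pathway. The series, by its title, concerns whether muscle fate is held down in neural cells.

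Bulk RNA at postnatal day 2 (P2) came from 4 Insm1fl/fl controls, 4 Atoh1Cre; Insm1fl/fl mutants, 3 Tead1fl/fl;Tead2fl/fl controls and 4 Atoh1Cre;Tead1fl/fl;Tead2fl/fl mutants, each an individual pup. Single-cell RNA at postnatal day 7 (P7) came from 2 controls and 3 mutants of either line, with 1 cerebellum for each library. All of these animals carry floxed alleles, and the controls lack Cre. Cells outside the Atoh1 lineage should keep the targeted genes in the mutants, so that a whole cerebellum mixes deleted and undeleted cells. In bulk RNA, and in sums over cells, more cells with a transcript and more transcript per cell cannot be told apart.

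The myogenic bHLH factors bind the DNA sequence called the E-box (CANNTG, with any base at N) as dimers with widely expressed E proteins, and several of them can turn other cells toward muscle when forced on. Myf5 and Myod1 commit cells to the muscle lineage, Myog (myogenin) drives terminal differentiation into fibres, and Myf6 (MRF4) acts in commitment and again in late fibres. The normal cerebellum makes no skeletal muscle, and its granule cells rely on bHLH factors of the neural branch, such as Atoh1 and Neurod1.

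On GRCm38.p6 the 4 genes, all protein coding, lie on 3 chromosomes. Myod1 (ENSMUSG00000009471.4) spans chr7:46376474-46379092 and Myog (ENSMUSG00000026459.5) spans chr1:134290004-134292548. Myf5 (ENSMUSG00000000435.1, chr10:107482908-107486927) and Myf6 (ENSMUSG00000035923.4, chr10:107492848-107494723) are neighbours, 5920 bases apart with 0 genes between them. Of the 4 members, 2 matched an entry of the RefSeq promoter table (GRCm38.p6), Myog and Myf5. Myod1 and Myf6 are named only. The 250 bases before the start that this table uses are printed 5′ to 3′ on the strand of the gene, with E-boxes in capitals, because the members rose together and E-boxes are the sequences that these factors themselves bind. For Myf5 that start lies inside the span given above, so its window lies within the annotated gene span.
Myog, chr1:134289754-134290003, plus strand: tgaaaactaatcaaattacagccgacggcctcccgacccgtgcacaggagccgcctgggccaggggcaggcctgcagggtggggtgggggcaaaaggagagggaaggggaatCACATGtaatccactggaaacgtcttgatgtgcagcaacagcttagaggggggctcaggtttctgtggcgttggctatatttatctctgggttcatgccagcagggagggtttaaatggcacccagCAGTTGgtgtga
Myf5, chr10:107486135-107486384, minus strand: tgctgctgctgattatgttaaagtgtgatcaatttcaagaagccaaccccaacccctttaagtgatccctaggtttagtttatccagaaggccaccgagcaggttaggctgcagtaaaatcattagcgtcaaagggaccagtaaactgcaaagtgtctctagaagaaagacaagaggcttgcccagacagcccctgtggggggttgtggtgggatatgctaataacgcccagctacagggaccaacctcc
The Myog window held 2 E-boxes, CACATG with its first base 138 bases upstream of the start and CAGTTG at 12 bases. It also held TCAGGTTTC, the MEF3 sequence, at 84 bases upstream. The Myf5 window held none of the sequences searched. Among 32851 RefSeq windows of the same length, searched on both strands, 66.2% held an E-box, 13.0% the E-box CAGCTG, 0.387% the MEF3 sequence and 12.6% the TEAD core CATTCC. Neither printed window held CAGCTG, which is also counted among the E-boxes, or CATTCC.

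The P2 libraries held 28066700 to 64518800 expected counts. The P7 libraries held 98416728 to 226631912 UMIs (unique molecules), of which 91.7% to 94.3% lay in the 79838 barcodes kept as cells. Insm1 was lower in the Insm1 mutants at P2, at 8.44 to 16.1 CPM (the count scaled to the library's total, after TMM normalisation) against 30.8 to 71.9 in their controls, and at P7, at 5.72 to 14.5 against 56.3 to 58.2. Tead2 at P7 was 7.26 to 9.15 CPM in the Tead1/2 mutants against 30.1 to 31.9 in their controls. At P2 the ranges of Tead2 overlapped, at 17.4 to 25.9 CPM in the mutants and 22.3 to 25.7 in the controls, and the highest value belonged to the library labelled Tead1/2 mutant 4. That library also stood with the controls for Myod1 and Myog, so its results are given with and without it. Tead1 was at 36.9 to 50.2 CPM in the P2 Tead1/2 mutants and 34.7 to 53.8 in their controls. Xist exceeded the Y-linked Ddx3y at P2 in 4 of 4 Insm1 controls, 2 of 4 Insm1 mutants, 1 of 3 Tead1/2 controls and 1 of 4 Tead1/2 mutants, and at P7 in 1 of 2, 2 of 3, 2 of 2 and 1 of 3. The part of sex in the P7 results was not tested. The lines were processed in different labelled batches at P2, so line and batch cannot be told apart there. At P7, 1 library of each group, numbered 1, held all lobules and the others lacked lobules IX and X. Among the P7 mutants of either line, this library had the lowest Myod1, Myog and share of cells with a member. It did not have the lowest Myf6. The part of dissection in this spread was not tested.

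Myod1, the commitment factor, had higher values in the mutants of both lines at both ages, though only slightly in 1 library, and its level in controls differed between the lines. At P2 the Insm1 controls held 2.51, 3.06, 0.902 and 0.869 CPM of Myod1. The Insm1 mutants held 5.18, 5.79, 5.96 and 6.73 CPM. All 4 mutants lay above all 4 controls, and controls 1 and 2 stood above controls 3 and 4. The means were 1.83 ± 1.12 and 5.91 ± 0.635 CPM (SD, n = 4 each), and the fitted log2 change was 1.67 (SE 0.35). The change did not pass the threshold, an adjusted p under 0.05, in edgeR's quasi-likelihood test (adjusted p = 0.0748). DESeq2 gave it an adjusted p of 0.000197. In DESeq2 Myod1 was the 1 member called, where 0.798% of all genes were called.

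In the Tead1/2 line at P2 the controls held 0.0745, 0.119 and 0.106 CPM of Myod1, from 11 counts over 3 libraries. Mutants 1 to 3 held 5.51, 6.69 and 5.54 CPM, and the library labelled mutant 4 held 0.255 CPM. The first 3 mutants stood far above the controls, and mutant 4 lay close to the controls. Over all 7 libraries the log2 change was 5.48 (SE 1.01), with an edgeR adjusted p of 0.0898 and a DESeq2 adjusted p of 9.8e-05. Without mutant 4 the edgeR log2 change was 5.85, given as a description since that library stands out by this gene too.

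At P7, over the summed cells of each library and with CPM now taken from UMIs and their plain total, the Insm1 controls held 1.83 and 1.74 CPM of Myod1 and the Insm1 mutants 13.5, 15.6 and 16.6 CPM. The Tead1/2 controls held 0.295 and 0.396 CPM and the Tead1/2 mutants 12.6, 18.1 and 15.6. Mutants and controls did not overlap in either line, whereas the mutants of the 2 lines overlapped. How many of all genes separated in this way, here and for the other members, was not counted. The log2 change of Myod1 was 3.03 (SE 0.16) for Insm1 and 5.41 (SE 0.20) for Tead1/2, with edgeR adjusted p-values of 4.54e-07 and 2.53e-08. Over all barcodes, cells or not, it was 2.94 and 4.77.

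Myog, the differentiation factor, also had higher values in the mutants of both lines at both ages, with the library labelled Tead1/2 mutant 4 again apart. At P2 the Insm1 controls held 0.483, 3.92, 0 and 0.0898 CPM of Myog, and the Insm1 mutants held 34.8, 26.5, 18.7 and 24.7 CPM. Control 2 stood far above the other controls, yet every mutant was above it. The means were 1.12 ± 1.87 and 26.2 ± 6.62 CPM (SD, n = 4 each), with a log2 change of 4.52 (SE 0.75) and an edgeR adjusted p of 0.0246. Thus edgeR called 1 of the 2 members tested, Myog, where it called 0.689% of all genes (0.48% as higher). The call of Myog was lost in DESeq2 (adjusted p = 0.0821) and with a term for sex read from Xist and Ddx3y (adjusted p = 0.0608). It was also lost without control 1 (adjusted p = 0.1), control 4 (0.0683), mutant 2 (0.061), mutant 3 (0.0563) or mutant 4 (0.0782). Without control 2 the log2 change of Myog was 6.94, with an adjusted p of 0.000666, and Myod1 was then called too, at a log2 change of 2.02 and an adjusted p of 0.0414.

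In the Tead1/2 line at P2 the controls held 0.199, 0.237 and 0.319 CPM of Myog. Mutants 1 to 3 held 29.0, 36.8 and 34.7 CPM, and the library labelled mutant 4 held 0.415 CPM. Mutant 4 again lay close to the controls, and the other mutants stood far above both. Over 7 libraries the log2 change of Myog was 6.69 (SE 1.27), with an edgeR adjusted p of 0.0898, so that edgeR called 0 of the 2 members tested and 0% of all 20247 genes. Of those genes 4052 had an unadjusted p under 0.05, among them both members, and DESeq2 called both members and 2.51% of all genes. Without mutant 4 the log2 change of Myog was 7.08, and edgeR called 2 of 2 members, where it called 3.19% of all genes (1.98% as higher). Since mutant 4 stands out by these same genes as well as by Tead2, the calls without it are a description and no independent test.

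**Figure D1:**
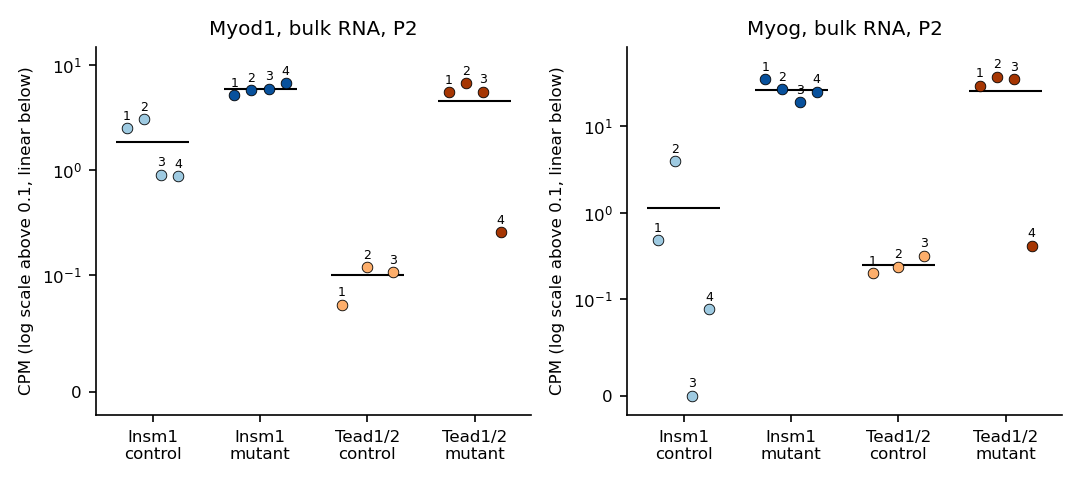
CPM of Myod1 (left) and Myog (right) in each P2 bulk library, numbered by replicate, on an axis that is logarithmic above 0.1 and linear below, with the mean of each group as a bar. Each mutant lies above the controls of its line, the library labelled Tead1/2 mutant 4 only slightly, at 0.255 and 0.415 CPM, and the Insm1 controls hold more Myod1 than the Tead1/2 controls.

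At P7 the Insm1 controls held 0.693 and 0.523 CPM of Myog and the Insm1 mutants 65.1, 73.9 and 78.4 CPM. The Tead1/2 controls held 0.489 and 0.564 CPM and the Tead1/2 mutants 62.7, 120.1 and 96.2. The controls of both lines shared 1 narrow range, and the mutants of both lines overlapped. The log2 change of Myog was 6.83 (SE 0.30) for Insm1 and 7.37 (SE 0.32) for Tead1/2, with edgeR adjusted p-values of 1.28e-07 and 5.81e-08. Many of the control UMIs of Myog lay outside the barcodes kept as cells, with 132 and 96 in cells against 290 and 236 over all barcodes in the Insm1 controls, and 68 and 57 against 330 and 280 in the Tead1/2 controls. Over all barcodes the log2 change of Myog was smaller, 5.73 for Insm1 and 5.19 for Tead1/2, and was still called (adjusted p = 2.33e-07 and 2e-07). In single cells the highest Myog count was 70 UMIs, in a Tead1/2 mutant, against a highest count of 15 UMIs in any control cell.

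Myf5 and Myf6 were scarce at P2. Myf5, the other commitment factor, had a total of 0 counts in the Insm1 controls, 1 in the Insm1 mutants, 1 in the Tead1/2 controls and 1 in the Tead1/2 mutants, and no change was detectable at this depth. Myf6, the late fibre factor, had 1 count in the Insm1 controls and 12 in the mutants, a ratio of CPM of 12.8 (95% counting interval 1.89 to 546). In the Tead1/2 line Myf6 had 3 and 17 counts, a ratio of 3.45 (0.998 to 18.4). Neither gene passed the filter on low counts at P2, so neither was tested there, and these intervals cover counting error only.

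At P7 both scarce members were detected in every mutant library. In the barcodes kept as cells Myf5 had 0 UMIs in all 4 control libraries, 4, 4 and 7 UMIs in the Insm1 mutants and 23, 83 and 35 in the Tead1/2 mutants. Over all barcodes Insm1 control 1 held 1 UMI of Myf5 and the other controls 0. The level of Myf5 was 5.18-fold a floor of 3 counts over the control group in the Insm1 mutants, and 26.2-fold in the Tead1/2 mutants. These ratios leave out the counting error of the mutant UMIs and are not lower bounds. The edgeR adjusted p-values of Myf5 were 0.0048 and 7.25e-05, the first of which rests on 15 UMIs in all and was lost, at an adjusted p of 0.264, when cells above Scrublet's automatic doublet threshold were removed.

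Myf6 had 2 and 2 UMIs in the Insm1 controls and 102, 148 and 93 in the Insm1 mutants, which is 0.921, 1.10 and 0.804 CPM. It had 2 and 3 UMIs in the Tead1/2 controls and 322, 805 and 333 in the Tead1/2 mutants, which is 3.57, 3.80 and 2.58 CPM. Every mutant was above every control, and every Tead1/2 mutant was above every Insm1 mutant. The log2 change of Myf6 was 6.30 (SE 0.40) for Insm1 and 7.16 (SE 0.37) for Tead1/2, with edgeR adjusted p-values of 1.49e-06 and 2.27e-07. Over all barcodes it was 4.57 and 5.44.

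**Figure D2:**
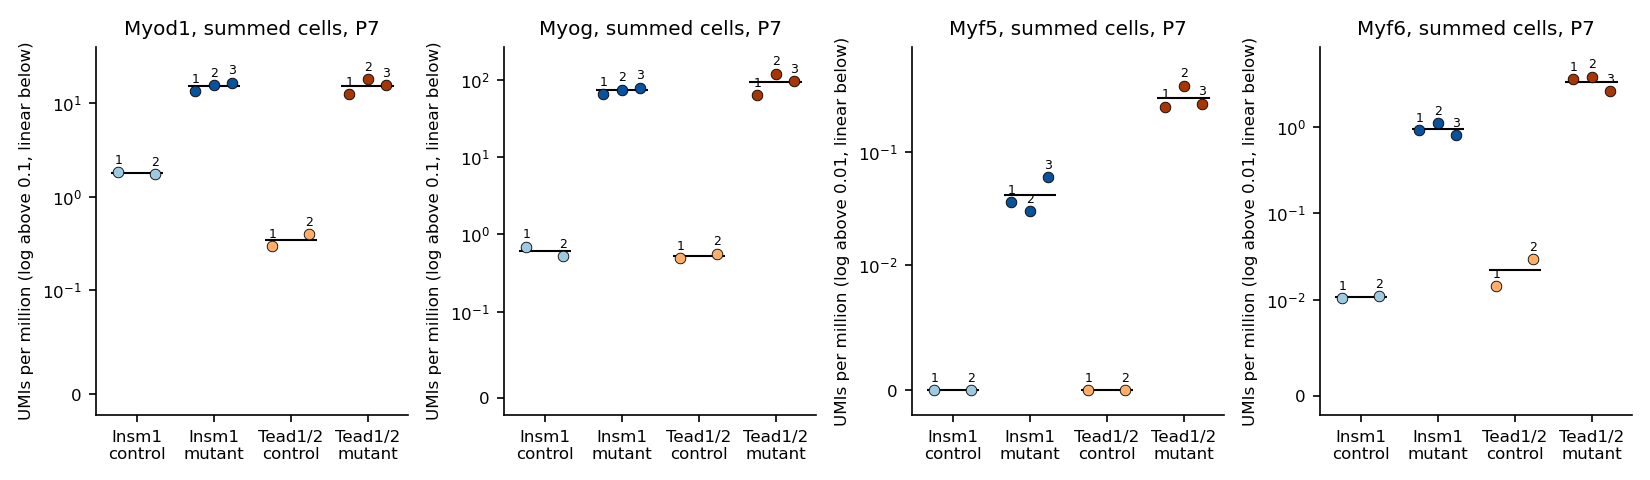
CPM (scaled UMIs) of each member in the 10 P7 libraries, summed over cells and numbered by replicate, on an axis that is logarithmic above the value named on it and linear below, with group means as bars. Each mutant library lies above each control library for each member. The share of all genes so separated was not counted. By edgeR's test 18.6% of all genes were called higher for Insm1 and 25.9% for Tead1/2. Myf5 is at 0 in the cells of the 4 control libraries, and Myod1 is the member whose controls are apart, at 1.74 to 1.83 against 0.295 to 0.396.

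All 4 members were thus called higher at P7 in both lines, at a background of 33.9% of all genes called for Insm1 (18.6% as higher) and 48.6% for Tead1/2 (25.9% as higher). A large part of all genes was thus called as well. Myf5 and Myf6 passed the filter on low counts only through mutant libraries, Myf5 only through the Tead1/2 mutants. Their calls are therefore a description, and the count of 4 is no support beyond Myod1 and Myog. When the sums were restricted to cells of granule progenitor-like and granule neuron-like clusters, named from their markers, only Myod1 and Myog passed the filter on low counts. Both were called in both lines, 2 of 2 against 19.2% of all genes for Insm1 and 18% for Tead1/2. The log2 change there was 2.97 and 4.81 for Myod1, and 3.89 and 3.28 for Myog, the latter beside 6.83 and 7.37 over all cells. For Myog, microglia-like cells of the mutants held a higher share of positive cells than the progenitor-like clusters almost free of control cells (values with the kinds of cell), so its rise in these sums is not read as expression by granule cells.

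The effect on Myod1 differed between the lines at P7. The Insm1 effect on Myod1 was smaller than the Tead1/2 effect by 2.37 on the log2 scale (interaction contrast, SE 0.24, edgeR adjusted p = 0.00211). It was the 1 member of 4 that was called, where 3.68% of all genes were called (2.17% as lower). The Insm1 controls held more Myod1 than the Tead1/2 controls by a log2 difference of 2.41 (SE 0.21, adjusted p = 0.000491), with 4.49% of all genes called between the controls. The mutants of the 2 lines differed in Myod1 by a log2 value of 0.04 (95% interval -0.21 to 0.28, adjusted p = 0.862). The difference between the effects is the mutant difference minus the control difference, so these values are not independent.

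At P2 the Insm1 controls also held more Myod1 than the Tead1/2 controls, by a log2 difference of 4.18 (SE 0.99, adjusted p = 0.0199), where 8.37% of all genes were called. That call was lost without Insm1 control 1 (adjusted p = 0.0581) or without Tead1/2 control 1 (0.0755), 2 (0.0657) or 3 (0.0881). The difference between the effects at P2 was -3.81 for Myod1 (adjusted p = 0.541) and -2.17 for Myog (adjusted p = 0.891), and 0 of the 2 members and 0% of all 20837 genes passed edgeR's test. Of all genes 1435 had an unadjusted p under 0.05, and DESeq2 called 14.

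For Myog the P7 effects differed by -0.54 (adjusted p = 0.48), and the controls of the 2 lines by 0.24 (adjusted p = 0.738). For Myf6 the difference between the effects was -0.86 (adjusted p = 0.677), on 4 and 5 control UMIs. Between the mutants of the 2 lines, Myf5 was lower in the Insm1 mutants by 2.82 on the log2 scale (adjusted p = 0.000938) and Myf6 by 1.76 (adjusted p = 0.000206), whereas Myog differed by -0.30 (adjusted p = 0.258). These 2 calls of 4 stand beside 25.7% of all genes called between the mutants (13.7% as lower in the Insm1 mutants). Myf5 passed the filter on low counts only through the Tead1/2 mutants, where it is higher, so its call is a description.

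**Figure D3:**
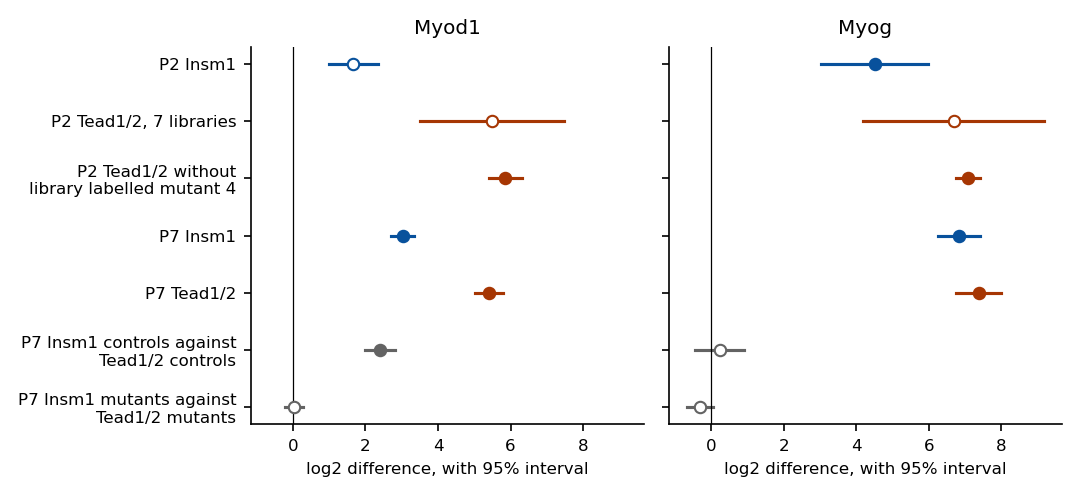
Fitted log2 differences of Myod1 (left) and Myog (right) with 95% intervals, for the mutants against their controls at P2 and P7 and for the lines against each other at P7, filled where the edgeR adjusted p is under 0.05 and open otherwise (a description for the fit without mutant 4). The P7 difference between the controls is at 2.41 for Myod1 and 0.24 for Myog.

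The P7 counts that follow stand beside 33.9% of all genes called for Insm1 (18.6% as higher) and 48.6% for Tead1/2 (25.9% as higher). Those at P2 stand beside 0.48% of all genes called as higher for Insm1. For Tead1/2 at P2 no gene of any list passed over all 7 libraries, and the counts without mutant 4, beside 1.98% called as higher, are a description. The filter on low counts also keeps genes expressed in the mutants alone, which can then only rise. Which muscle genes of the lists passed in that way was not counted, so their counts are a description too. Of 10 genes that act upstream of the family in the embryo, 4 rose in both lines at P7. Among them the homeobox gene Six4 rose by a log2 value of 2.66 in the Insm1 mutants and 2.74 in the Tead1/2 mutants, and the coactivator gene Eya2 by 1.46 and 1.73. Pax3 and Pax7, which act before Myf5 and Myod1 in the somite, did not pass the test in either line. At P2, 0 of 8 tested regulators were called in the Insm1 line, and Six4 alone, by 0.61, in the Tead1/2 line without mutant 4.

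The E proteins that pair with the family did not rise. At P7 Tcf3 fell by 0.26 and 0.54 on the log2 scale in the Insm1 and Tead1/2 mutants and Tcf4 by 0.25 and 0.51, and Tcf12 fell by 0.16 in the Tead1/2 mutants. Of 9 inhibitors of myogenic bHLH factors, 4 rose and 2 fell in both lines at P7. Mdfi, which holds myogenic factors in the cytoplasm, rose by 1.19 and 1.61, and Bhlhe41 by 0.91 and 1.54. Hey1, a Notch target, fell by 1.23 and 2.01, and Id2 by 0.59 and 0.76. Of 8 cofactors 5 rose in either line, among them Mef2c (2.58 and 3.33), which binds DNA beside the family, and Smarcd3 (2.00 and 2.28), the chromatin subunit that MYOD1 recruits.

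At P2, 8 of 13 tested early targets rose in the Insm1 mutants, at a median log2 change of 1.42 against 0.006 for all genes, among them Ckm (4.89), the muscle creatine kinase, and Mymk (4.19), the fusion protein myomaker. In the Tead1/2 line 0 of 13 passed over all 7 libraries (median 0.80). Without mutant 4, 8 of 13 were called higher, at a median of 0.99, led by Mymk (4.64) and Mymx (3.85). At P7 all 16 early targets rose in both lines, at medians of 4.72 and 5.84 against 0.0377 and 0.0551 for all genes, with the acetylcholine receptor subunits Chrng (6.83 and 7.99) and Chrnd (6.44 and 8.74) near the top.

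Of the sarcomere genes at P2, 17 of 20 were higher in the Insm1 mutants (median 2.39). In the Tead1/2 mutants 0 of 20 were higher over all 7 libraries (median 1.35) and 14 of 20 without mutant 4 (median 1.62). The log2 change there, without mutant 4 in the Tead1/2 line, was 4.26 and 5.72 for Actc1, the embryonic actin, and 4.30 and 4.96 for Tnni1, slow troponin I. At P7, 20 of 20 sarcomere genes rose in both lines, at medians of 5.91 and 7.57. Of adult fibre genes at P2, 0 of 3 tested passed in the Insm1 mutants and 1 of 5 in the Tead1/2 mutants without mutant 4, and at P7 10 of 10 rose in both lines, with Atp2a1, the calcium pump of fast fibres, at 5.95 and 7.63.

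Of the neural bHLH factors at P7, 5 of 13 fell and 0 rose in the Insm1 mutants, and 5 fell and 2 rose in the Tead1/2 mutants, where 15.4% and 22.7% of all genes were called lower. Atoh1, the granule progenitor factor, fell by 0.71 and 1.65 on the log2 scale and Neurod1 by 1.04 and 1.39. Of 10 granule genes 8 fell and 1 rose in both lines, at medians of -0.80 and -1.25. At P2 Nhlh1 fell by 0.89 in the Insm1 mutants, and its log2 change in the Tead1/2 mutants without mutant 4 was -0.86.

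In single cells, shares were taken after each cell was thinned to 2000 UMIs. At that depth a UMI of any member was found in 0.469% and 0.442% of cells of the Insm1 controls and in 10.3%, 11.9% and 13.5% of the Insm1 mutants. The Tead1/2 controls held 0.2% and 0.282% and the Tead1/2 mutants 9.05%, 18.4% and 14.0%. The exact two-sided permutation p is 0.2 for either line, the smallest that 3 mutant and 2 control libraries allow. Without thinning the shares were 3.46% and 3.73% against 25.4% to 35.7% in the Insm1 line, and 1.04% and 1.297% against 24.2% to 42.8% in the Tead1/2 line.

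In the mutants most positive cells were positive for Myog, a mean of 80.7% for Insm1 and 84.6% for Tead1/2, whereas in the Insm1 controls 24 of 82 were. In the Tead1/2 controls 13 of 18 and 11 of 17 positive cells held Myog. After thinning 8.34% to 10.98% of Insm1 mutant cells and 7.37% to 15.99% of Tead1/2 mutant cells held a Myog UMI, against 0.114% to 0.183% of control cells. For Myod1 the shares were 2.51% to 3.35% and 1.84% to 3.01% in the mutants, 0.329% and 0.341% in the Insm1 controls and 0.0555% and 0.0664% in the Tead1/2 controls. Myf6 was seen in 0.0295% to 0.0905% of Insm1 mutant cells and 0.285% to 0.338% of Tead1/2 mutant cells. Myf5 was seen in 5 thinned cells in all, each in a Tead1/2 mutant.

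The members were spread differently over the kinds of cell. The cells were clustered without the members and without the listed early target, sarcomere, adult fibre and skeletal muscle marker genes. Other muscle genes were not excluded. Clusters were named from their markers. Clusters 10 and 33 were skeletal muscle-like, and cluster 11, with 14 of 16 muscle markers but other genes in the lead, stayed unnamed. Clusters 7 and 12 were granule progenitor-like and almost free of control cells, and clusters 6 and 8 were granule progenitor-like with most of their cells from controls.

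Myog was highest in clusters 11 and 10. In cluster 11 it stood at 642 ± 38.2 CPM in the Insm1 mutants and 487 ± 139 in the Tead1/2 mutants (SD, n = 3 libraries each), in cluster 10 at 388 ± 14.1 and 332 ± 117, and in cluster 33 at 121 ± 1.03 and 153 ± 25.1. After thinning, 70.4% and 57.9% of cluster 11 cells, 57.6% and 49.7% of cluster 10 cells and 24.4% and 25.7% of cluster 33 cells held a Myog UMI. Cluster 33, in which the sarcomere genes Myh8, Neb and Acta1 led, therefore held less Myog for its RNA than clusters 10 and 11.

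Cells that should lack the family also held some of it. Microglia-like cells, of median depth 14084 UMIs in the Insm1 mutants and 5799 in the Tead1/2 mutants, held Myog at 60.2 ± 15.2 and 66.7 ± 26.9 CPM, and 6.59% and 5.78% of them held a Myog UMI after thinning. The granule progenitor-like clusters 7 and 12 were below that, with a Myog UMI in 1.957% and 1.36% of cluster 7 cells and 2.52% and 1.70% of cluster 12 cells, at median depths of 6012 to 7912 UMIs. Shares at or below that of microglia-like cells are not read as expression, and where these Myog UMIs came from was not tested.

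Myod1 differed. In cluster 7 it stood at 30.3 ± 2.36 CPM in the Insm1 mutants and 14.3 ± 2.92 in the Tead1/2 mutants, and in cluster 12 at 25.5 ± 3.52 and 26.6 ± 8.19. In microglia-like cells it was 13.5 ± 0.894 and 12.7 ± 2.698 CPM. A Myod1 UMI was found in 5.65% (95% interval 4.74% to 6.68%) of cluster 7 cells of the Insm1 mutants and 2.87% (1.73% to 4.44%) of those of the Tead1/2 mutants, against 1.69% (0.778% to 3.19%) and 0.853% (0.391% to 1.61%) of microglia-like cells. Other kinds of cell held Myod1 too. After thinning, GABAergic interneuron-like cluster 15 held 27 positive cells in the Insm1 mutants and 33 in the Tead1/2 mutants, and cluster 7 held 130 and 19. Before thinning, cluster 15 had 287, 448 and 300 cells in the Insm1 mutant libraries and 175, 437 and 366 in the Tead1/2 mutant libraries. Cluster 7 of the Tead1/2 mutants is thus not read as above every other kind of cell. In the muscle-like clusters Myod1 stood at 36.9 ± 2.04 and 26.99 ± 5.40 in cluster 10 and 27.8 ± 1.47 and 26.8 ± 1.49 in cluster 33. Before thinning, cluster 11 held 123 Myod1 UMIs in 418 cells of the Insm1 mutants and 262 in 1113 of the Tead1/2 mutants. Cluster 10 held 551 in 1331 and 632 in 2043, and cluster 7 held 517 in 2313 and 88 in 673. Myod1 was thus not confined to progenitor-like cells. Granule neuron-like cells of cluster 26, also almost confined to mutants, held 1.73 ± 1.20 and 1.65 ± 0.206 CPM.

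The share of Myod1 among the UMIs of Myod1 and Myog separated these cells. It was 73.0% (95% interval 69.6% to 76.3%) in cluster 7 of the Insm1 mutants and 66.2% (57.5% to 74.1%) of the Tead1/2 mutants, and 58.7% and 70.7% in cluster 12. It was 8.69% and 7.38% in cluster 10, 6.28% and 5.29% in cluster 11 and 18.5% and 14.6% in cluster 33. Microglia-like cells had 18.5% (16.3% to 20.9%) and 14.97% (13.2% to 16.9%), near the 17.6% and 13.9% of all mutant cells together, and oligodendrocyte lineage-like cells had 18.4% and 13.1%. These exact binomial intervals cover counting error only.

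**Figure D4:**
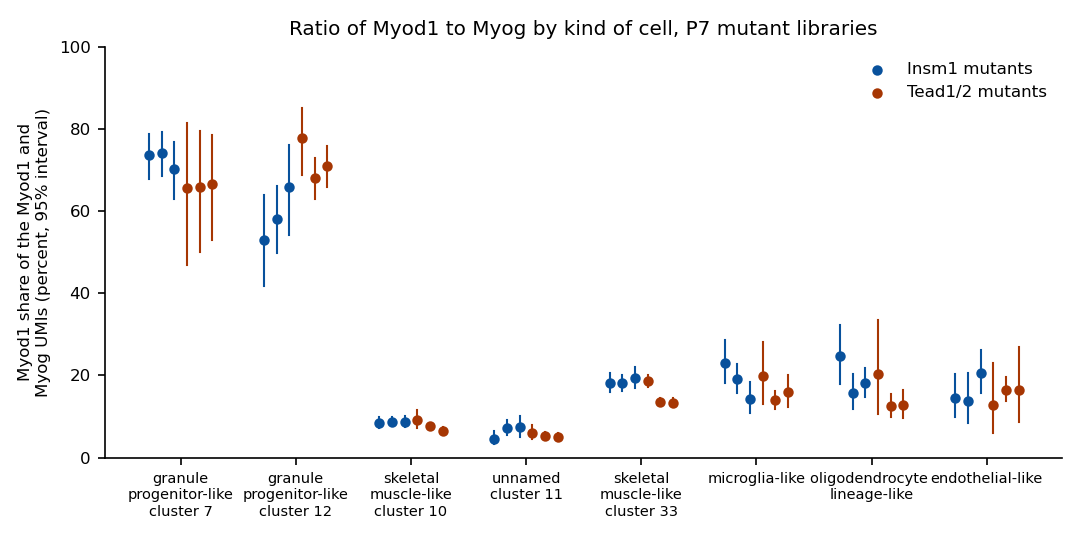
Myod1 as a percent of the Myod1 and Myog UMIs in each mutant library, by kind of cell, with exact 95% binomial intervals. The granule progenitor-like clusters 7 and 12 have group values of 58.7% to 73.0%, and clusters 10 and 11 of 5.29% to 8.69%.

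Myf6 was nearly confined to cluster 33 among the muscle-like cells. It stood there at 7.83 ± 1.74 CPM in the Insm1 mutants and 12.3 ± 1.25 in the Tead1/2 mutants, and at 0.0829 or less in clusters 10 and 11. Of the thinned cells with a Myf6 UMI, 10 of 12 in the Insm1 mutants and 55 of 72 in the Tead1/2 mutants lay in cluster 33. Microglia-like cells held 0.9 ± 0.85 and 2.61 ± 0.671 CPM of Myf6. Myf5 stood at 0.406 ± 0.224 and 1.14 ± 0.229 CPM in cluster 33, with 0 UMIs in clusters 10 and 11, and 4 of the 5 thinned cells with a Myf5 UMI were in cluster 33. That cluster held 698 thinned cells in the Insm1 mutants and 2489 in the Tead1/2 mutants, at a median depth of 19890 and 22776 UMIs.

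In the Insm1 controls part of the Myod1 was found in granule progenitor-like cells. Before thinning, cluster 6 held 99 of the 556 Myod1 UMIs of these controls, in 2943 of their 18335 cells. Of 60 thinned Insm1 control cells with a Myod1 UMI, 26 were in cluster 6, and Myod1 stood there at 4.01 ± 0.284 CPM (SD, n = 2), against 0.695 ± 0.283 in the Tead1/2 controls. The share of cluster 6 cells with a Myod1 UMI was 0.895% (95% interval 0.585% to 1.31%) and 0.189% (0.0694% to 0.411%). Microglia-like cells of the Insm1 controls held 1.99 CPM of Myod1 in both libraries, with a UMI in 1 of 368 thinned cells (0.272%, interval 0.00688% to 1.505%), so the share in cluster 6 is not separated from that background by its counting error. Granule neuron-like cells of cluster 9 held 0.296 ± 0.0612 CPM in the Insm1 controls.

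Restricted to granule progenitor-like and granule neuron-like cells, the difference of Myod1 between the controls remained called, at a log2 value of 2.38 (adjusted p = 0.019, where 2.42% of all genes were called). The difference between the effects there was -1.85 with an adjusted p of 0.106. The difference between the controls was not particular to granule cells. Before thinning, microglia-like cells held 25 Myod1 UMIs in 391 cells of the Insm1 controls and 1 in 423 of the Tead1/2 controls. Oligodendrocyte lineage-like cells held 30 in 673 and 4 in 573. Among all cells Myod1 made up 75.7% (72.5% to 78.8%) of the Myod1 and Myog UMIs in the Insm1 controls and 37.5% (30.3% to 45.1%) in the Tead1/2 controls. Among the early targets, Cdh15 (M-cadherin, which cerebellar granule cells also express) was higher in the Insm1 than in the Tead1/2 controls at P7 by 2.07 (adjusted p = 0.00423), as was the receptor gene Fgfr4 by 1.24 (adjusted p = 0.000909). The other 14 early targets and all 20 sarcomere genes did not pass the test between the controls.

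Cells with Myod1 and cells with Myog differed in what else they held. Of thinned Myog-positive cells, a mean of 49.99% (44.7% to 53.5% over 3 libraries) in the Insm1 mutants and 75.2% (70.6% to 79.9%) in the Tead1/2 mutants held UMIs of at least 3 sarcomere genes. Cells with no member UMI did so in 8.93% and 19.2%, and microglia-like cells in 12.02% and 14.3%. UMIs of at least 3 granule genes were held by 11.4% and 6.62% of Myog-positive cells and by 30.9% and 24.2% of cells with no member UMI. Sarcomere and granule genes together, at least 3 of either, were held by 3.83% and 3.32% of Myog-positive cells. This joint share depended on depth, at 0.581% and 0.661% when cells were thinned to 1000 UMIs, 15.8% and 12.97% at 4000 UMIs and 55.0% and 47.3% without thinning. It was 1.83% and 1.41% by Scrublet's automatic threshold, the first a mean of 5.49% in Insm1 mutant 1, where that threshold removed 0 cells, and 0% in the other two Insm1 mutants.

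Cells with a Myod1 UMI but no Myog UMI, 405 in the Insm1 and 432 in the Tead1/2 mutants, lay between these. Of them 18.2% (14.97% to 20.8%) and 40.1% (27.3% to 49.0%) held at least 3 sarcomere genes, and 27.7% (21.0% to 34.9%) and 20.5% (14.4% to 25.0%) at least 3 granule genes. A UMI of an early target was held by 50.6% and 62.5% of them, against 27.3% and 33.4% of cells with no member UMI and 90.1% and 93.8% of cells with Myog alone. The 137 and 153 cells with both factors held at least 3 sarcomere genes in 54.0% and 77.3% and at least 3 granule genes in 3.72% (0% to 8.77% over libraries) and 4.22% (1.82% to 6.85%).

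Overlap between the 2 main members was limited at this depth. Of Myod1-positive cells a mean of 25.4% in either line held Myog, and of Myog-positive cells 7.94% and 5.44% held Myod1. Of the 72 Myf6-positive cells of the Tead1/2 mutants, 96.0% (92.9% to 100%) held at least 3 sarcomere genes, 30.5% held Myog and 8.77% held Myod1. In unthinned Insm1 mutant cells the mean shares were 15.93% with Myod1, 23.97% with Myog and 30.19% with any member. In the Tead1/2 mutants they were 14.94%, 28.63% and 33.19%. Shares of this size require that most Myod1-positive cells then also held Myog. The 2 factors are therefore not read as marking separate cells. The part of doublets and of free RNA in these overlaps was not tested beyond the microglia-like values. After thinning, a mean of 41.9% of the 60 Myod1-positive cells of the Insm1 controls held at least 3 granule genes, against 56.9% of cells with no member UMI. Of the 60, 1 held at least 3 sarcomere genes.

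**Figure D5:**
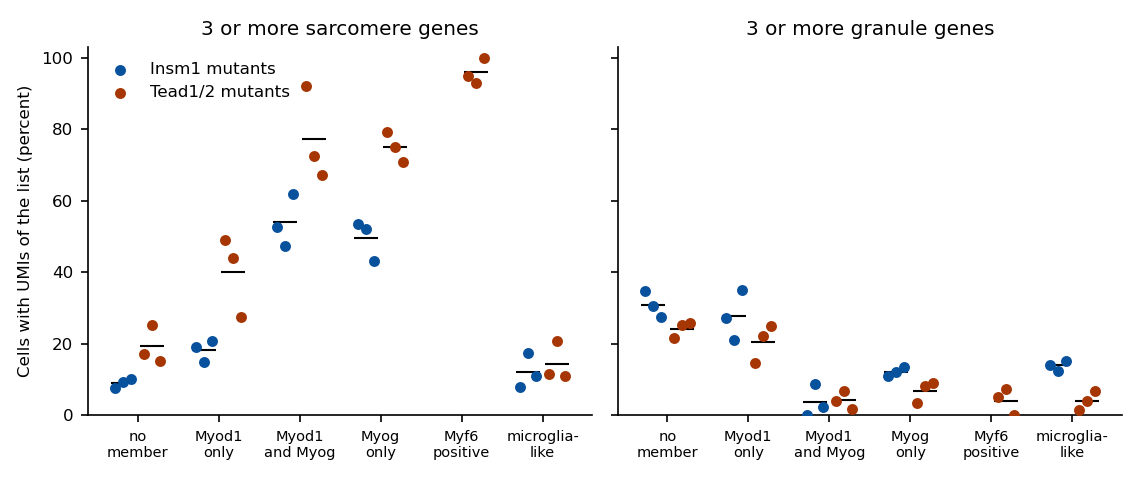
Percent of thinned P7 mutant cells that hold UMIs of at least 3 sarcomere genes (left) or at least 3 granule genes (right), by the members found in the cell, with points for libraries and bars for group means. Myog-positive and Myf6-positive cells are high on the left, at means of 49.6% to 96.0%, and cells with Myod1 only lie between them and cells with no member.

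Across libraries the genes most like each member, by Pearson correlation of log2 CPM, were ranked for each member. Over the 15 P2 libraries Myog followed Myl1 (0.988), Tnni1 (0.980), Actc1 (0.980), Klhl41 (0.971) and Rgs16 (0.967). Myod1 followed Unc5b (0.942), Nectin3 (0.942), Kif26a (0.937), Sgca (0.928) and Thsd4 (0.920), and its correlation with Myog was 0.825. Over the 10 P7 libraries Myod1 followed Fgfr4 (0.994), Gm11523 (0.991), Cdh15 (0.990), Stc2 (0.988) and Mir100hg (0.987), and its correlation with Myog was 0.945.

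Over the P7 libraries Myog followed Gm27207, Sct, Syne1, Trim55 and Gm33782 (0.998 to 0.997), and Myf6 followed Trim72, Jph2, Fsd2, 1110002E22Rik and Adssl1 (0.999 to 0.998). Myf5 followed Sema3e, Lypd6, Scrn3, Myo1c and Mir376c (0.995 to 0.991). Myf6 correlated with Myog at 0.972 and with Myf5 at 0.937. All of these values are descriptions over few libraries, whose points share genotype, line and, at P2, batch.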

How the data were processed

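Bulk RNA was measured in 15 P2 libraries and single-cell RNA in 10 P7 libraries, and other assays of the series were not used here. The P2 tables hold expected counts per gene that the authors deposited, and the submitters' processing notes list Trim Galore 0.6.3, STAR 2.7.9a, RSEM 1.3.3 and GRCm38.p6. The P7 matrices hold deposited UMI counts per cell barcode, with GRCm39 named in the gene tables, and the notes list Seurat 4.4.0. The bulk tables carry the names of the opposite lines to their columns, and columns were matched to samples by column name. Expected counts, of which 6.85% to 8.79% were not whole, were rounded, and 92 spike-in rows were left out. Cells had at least 1000 UMIs, 500 genes and at most 15% mitochondrial UMIs, and libraries shared 0 barcodes. P7 counts were summed over cells for each library.

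Genes were tested with edgeR 4.0.16 (R 4.3.3; filterByExpr, TMM, quasi-likelihood test, Benjamini-Hochberg over all genes, threshold 0.05) on each line, and on both lines for the differences between them. DESeq2 1.42.0 was an alternative, with no filter, leaving out each library, terms for replicate number, sex and dissection, other cell sets, doublet cuts and thinning depths. P-values measure the spread between individual pups. Scrublet (scanpy 1.11.5) marked 0% to 55.3% of cells by its automatic threshold, and under 1% in 3 libraries, so the 5% of cells with the highest scores were removed before shares, clusters and co-detection. Thinning to 2000 UMIs left out 68 to 242 shallower cells in each library, leaving 4419 to 10029. Intervals of shares and of count ratios are exact binomial and cover counting error only. Intervals of log2 differences are normal intervals from the SE of the fit. The edgeR fits of P2 Insm1, P2 Tead1/2 and P7 Insm1 were tested on simulated data, and the other fits were not. Of 50 genes simulated to change 2-fold, 50, 50 and 47 were called, with 14, 10 and 7 false calls in the whole fit. Only genes with ample counts were changed, and no simulated library was set apart from its group. The recovery therefore does not cover scarce members or a group with a library such as Tead1/2 mutant 4.

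The members and gene lists were chosen with earlier results of these data known. Named genes are mainly the members, up to 4 called genes with the largest change in each list, and the 5 genes most correlated with each member. Some others, such as Pax3 and Pax7, are named besides. Single values of some list genes are not reported here.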

Additional observations from a re-analysis of the deposited data

Results flagged for a closer look

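Of 11 groups of 4 P2 libraries examined, 4 held a library whose gap to its nearest neighbour, as a share of the group's whole range, was above Dixon's critical value. For continuous values chance gives this in about 5% of groups. Myog in Insm1 control 2 stood at 3.92 CPM, against 0.483 CPM or less in the other Insm1 controls. The others rest on single counts, with Myf5 at 0.0243 CPM in Insm1 mutant 1 and at 0.0227 CPM in Tead1/2 mutant 1, and Myf6 at 0.0241 CPM in Insm1 control 1, each against 0 in the rest of its group. A group with a single count in 1 library always passes, so the 5% does not apply to these and the tally shows no excess. The library labelled Tead1/2 mutant 4, at 0.255 CPM of Myod1 and 0.415 CPM of Myog, did not pass this value.

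The P7 effects on Myod1 differed between the lines by -2.37 on the log2 scale (interaction contrast, edgeR adjusted p = 0.00211), where 3.68% of all genes were called. Every mutant was above every control in both lines, and the share of all genes so separated was not counted. By edgeR's test 18.6% of all genes were called higher for Insm1 and 25.9% for Tead1/2.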

How the results depend on the processing

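The count of members called at P2 depended on the fit. In the Insm1 line it was 1, with 2 when no filter on low counts was used (0.539% of all genes called) and 0 with a term for sex (0.449%). It was 0 to 2 when 1 library was left out (0.323% to 0.667%). In the Tead1/2 line it was 0, with 2 in DESeq2 (2.51% of all genes called), with no filter (3.14%) and with a term for sex (0.0148%). It was also 2 in DESeq2 without the library labelled mutant 4 (2.95%), chosen after seeing the data. When 1 library was left out it was 0 to 2 (0% to 3.19%). Replicate numbers did not pair the samples (correlations of deviations -0.131 to 0.227 at P2 and -0.124 to 0.0365 at P7). With the replicate block the P2 counts were 0 for Insm1 (0.327% of all genes called) and 2 for Tead1/2 (1.17%). Mutant 4 is the only Tead1/2 library numbered 4 at P2, so the block fits it by its own term, as if left out. That count of 2 is therefore no independent test. At P7 all 4 members stayed called whichever library was left out (22.5% to 36.4% of all genes for Insm1, 34.1% to 48.6% for Tead1/2). In granule progenitor-like and granule neuron-like cells 2 members could be tested. There 2 were called in either line (19.2% and 18% of all genes) and 0 for the difference between the lines. The causes were not tested.

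Some differences that did not pass the test changed sign. The difference between the effects on Myog, -2.17 at P2, was -2.57 to 0.26 when 1 library was left out, positive only without Insm1 control 2, and at P7 0.53 with all barcodes and 0.61 in granule cells. The difference of Myod1 between the mutants ranged from -0.00515 (without Tead1/2 mutant 4) to 0.63 at P2, and from -0.0731 (without Tead1/2 mutant 1) to 0.17 at P7, with -0.0203 without Insm1 mutant 3.

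Shares rose with depth. The mutant excess of cells with any member was 11.4 points for Insm1 and 13.6 for Tead1/2 (10.7 to 12.2 and 11.3 to 15.95 leaving out 1 library). It was 7.02 and 7.99 at 1000 UMIs, 17.5 and 21.3 at 4000, and 26.6 and 32.0 without thinning. Myog-positive cells with at least 3 sarcomere genes were 37.8%, 60.3% and 78.7% for Insm1 at those depths, and 61.8%, 84.6% and 91.4% for Tead1/2 (48.2% to 52.6% and 72.8% to 77.5% leaving out 1 library). With at least 3 granule genes they were 3.33%, 33.3% and 67.4%, and 1.98%, 18.5% and 52.0% (10.9% to 12.04% and 5.64% to 8.28% leaving out 1 library). By Scrublet's automatic threshold they were 6.34% (3.67% to 11.3% over libraries, the highest in Insm1 mutant 1, where it removed 0 cells) and 3.27%, and 8.47% for Insm1 with the top 20% removed. Myod1-positive cells with at least 3 sarcomere genes were 32.1% at 4000 UMIs and 62.6% unthinned, and 58.8% and 79.3% for Tead1/2 (24.8% to 29.5% and 45.5% to 54.5% leaving out 1 library). With at least 3 granule genes they were 4.89%, 44.9% and 81.6%, and 5.52%, 32.7% and 70.0% (19.5% to 23.4% and 15.2% to 17.99% leaving out 1 library).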

Other observations

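Controls of the lines also differed in Tead2 itself. At P7 the Insm1 controls held 63.1 and 64.9 CPM of Tead2, above the 30.1 and 31.9 CPM of the Tead1/2 controls, and at P2 at 79.2 to 90.0 CPM against 22.3 to 25.7 CPM. In the P7 Tead1/2 mutants Tead1 was at 1125 to 1312 CPM, above the 630 to 631 CPM of their controls, so that its total count does not show the deletion.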
